A study of Mus musculus with 4 samples.

Results

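Intestinal stem cell markers are genes by which the self-renewing cells at the base of the intestinal crypt are recognised. Of these, 10 were followed here in mouse colon and colon tumours: Lgr5, Ascl2, Smoc2, Olfm4, Tnfrsf19, Prom1, Lrig1, Cdca7, Rgmb and Msi1. They were taken by name, as 10 of the 22180 genes that had a probe set annotated to exactly 1 symbol, and each gene was represented by its probe set of highest mean over the arrays.

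RNA was measured on 4 Affymetrix whole-transcript arrays, 1 each for Dmt1 F/F tumour, Dmt1 +/+ tumour, Dmt1 F/F normal colon and Dmt1 +/+ normal colon. All mice were C57BL/6, 3 months old and of the ApcF/+ genotype with the label CDX2, which the labels do not spell out. Normal colon and tumours thus share this Apc label, which does not give the state of Apc within the tumours. F is the usual sign for an allele with loxP sites on either side. Dmt1, whose gene symbol is Slc11a2, encodes an importer of ferrous iron, and Apc encodes a tumour suppressor that holds beta-catenin, the effector of Wnt signalling, in check. The design text names 4 animals of the Dmt1 F/F genotype and 7 of the Dmt1 +/+ genotype, and the sources used here do not say whether RNA of several animals was pooled on an array, which promoter drives recombination, or where along the colon each piece was taken.

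The stem cells at the crypt base divide throughout life and give rise to absorptive colonocytes and to secretory cells. Wnt ligands and R-spondins from the surrounding stroma hold them in the stem cell state, acting through Frizzled receptors and the LGR receptors, and BMP signals toward the crypt mouth oppose it. In tumours that begin with loss of Apc, beta-catenin with TCF and LEF factors keeps Wnt target genes on without the ligand, and Lgr5 and Ascl2 are among the targets that are known to rise.

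Values are log2 signals made with RMA by the authors, which removes differences in total signal between arrays. With 1 array per group, a difference between 2 arrays has no replicate check, and it was counted when it reached a log2 size of 1, which is 2-fold. For tumour against normal colon over both genotypes, 1 limma model with tissue and genotype as additive terms was fitted to the 12060 genes whose highest value reached the median gene level of log2 4.67, with a call at a Benjamini-Hochberg adjusted p under 0.05. Its only residual degree of freedom is the tissue by genotype term, and its standard error (SE) combines that term with a prior estimated from all genes, which has the larger weight. It does not measure the spread between animals. Of the 10 markers 9 passed the filter on level. Olfm4 lay below the median gene level on all 4 arrays, and Ascl2 and Msi1 passed only through tumour arrays, so that their presence in the fit is itself tied to a higher value there.

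The arrays differed in more than genotype and disease. Slc11a2 was at log2 6.19 in F/F tumour and 6.64 in +/+ tumour, and at 6.13 in F/F normal colon and 6.51 in +/+ normal colon, lower in F/F in both tissues. Its fitted F/F minus +/+ difference of -0.41 did not pass (limma adjusted p = 0.564). Apc had a fitted tumour minus normal difference of -0.03, which did not pass either (limma adjusted p = 0.855). The posterior homeobox gene Hoxd13 was at 8.35 in F/F tumour and 8.58 in +/+ tumour, against 3.02 in F/F normal colon and 6.86 in +/+ normal colon, so the normal pieces differed in a gene of position along the gut. Position and disease cannot be told apart in a comparison of tumour with normal colon here. Nor can position and genotype be told apart between the normal arrays, which also enter the fitted genotype difference. The 6 general epithelial genes, such as Epcam, had a mean level of 10.37 in F/F tumour, 10.30 in +/+ tumour, 10.44 in F/F normal colon and 10.43 in +/+ normal colon, and 1 of them, Vil1, fell in tumour. The 10 absorptive colonocyte genes averaged 8.39 in F/F tumour and 6.91 in +/+ tumour, against 10.23 in F/F normal colon and 9.87 in +/+ normal colon. Whole tissue was measured, so more cells of a type and more RNA per cell cannot be told apart in any value given here.

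**Figure D1:**
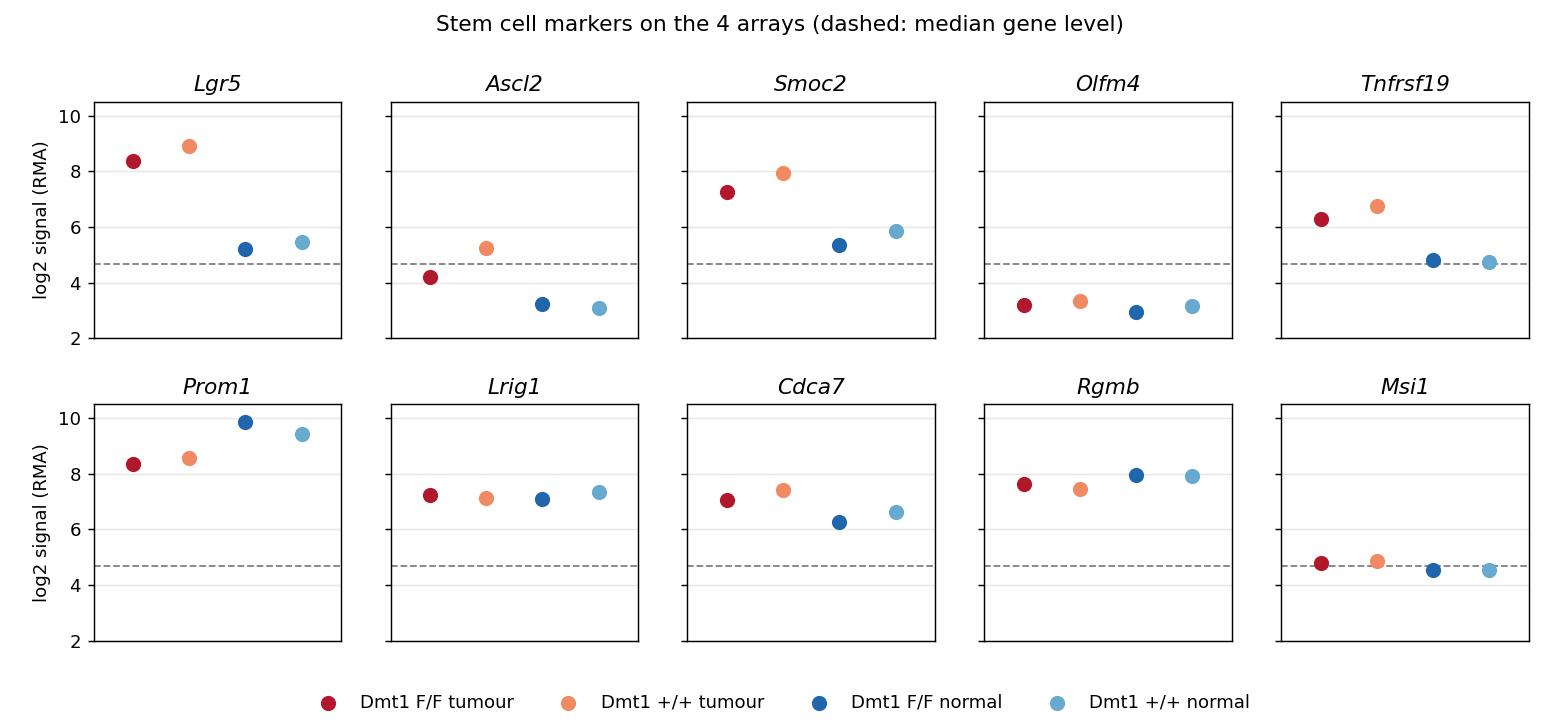
Log2 signal (y axis) of each of the 10 markers on the 4 arrays, 1 point per array, with the median gene level of 4.67 as a dashed line. Lgr5, Smoc2 and Tnfrsf19 are higher on both tumour arrays (8.39 and 8.91 for Lgr5) than on both normal arrays (5.20 and 5.46), Prom1 is lower on both tumour arrays, and Olfm4 lies under the line throughout.

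Tumours were set against normal colon to ask which of the markers separate the tissues. Of the 9 markers fitted, 4 rose in tumour (Lgr5, Smoc2, Tnfrsf19 and Cdca7), 1 fell (Prom1) and 4 did not pass (Ascl2, Rgmb, Msi1 and Lrig1). In the same fit 11.0% of all genes rose and 8.23% fell. Of all calls 57.3% were rises, a share of 46.4% after cyclic loess. The median fitted difference was 0.80 over the 9 markers and 0.07 over the 12060 genes. The markers thus moved in both directions. Of the 12060 genes, 40.1% had both tumour arrays above both normal arrays and 29.2% had both below. Such a separation of the tissues was thus common on these arrays.

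Among the receptors and other membrane proteins, Lgr5 stood out. Lgr5, a receptor for R-spondins and the defining marker of cycling crypt-base cells, was at log2 8.39 in F/F tumour and 8.91 in +/+ tumour, against 5.20 in F/F normal colon and 5.46 in +/+ normal colon. Both tumour arrays lay far above both normal arrays. The difference was 3.19 in F/F mice, or 9.10-fold, and 3.45 in +/+ mice, or 11.0-fold, and 0.299% and 0.282% of the 12060 genes had one as high. The fitted rise was 3.32 (SE 0.13, limma adjusted p = 0.00349). A second probe set of Lgr5 gave 3.60 in F/F tumour and 3.82 in +/+ tumour, against 3.82 in F/F normal colon and 3.59 in +/+ normal colon. It lay below the median gene level and did not separate the tissues. With the mean of both probe sets the fitted rise was 1.66 (adjusted p = 0.0114).

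Tnfrsf19, a TNF receptor family member also called Troy and a Wnt target found on crypt-base cells, was at 6.30 in F/F tumour and 6.77 in +/+ tumour, against 4.81 in F/F normal colon and 4.74 in +/+ normal colon. The tissues did not overlap, and the normal values lay close to the median gene level. The difference was 1.48 in F/F mice (2.80-fold) and 2.03 in +/+ mice (4.08-fold), with a fitted rise of 1.76 (SE 0.19, limma adjusted p = 0.0146).

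Prom1, the membrane glycoprotein CD133, which in mouse intestine is found beyond the stem cells, went the other way. It was at 8.34 in F/F tumour and 8.59 in +/+ tumour, against 9.85 in F/F normal colon and 9.43 in +/+ normal colon, with both tumour arrays below both normal arrays. The difference was -1.51 in F/F mice and -0.84 in +/+ mice, and the fitted value fell by 1.17 (SE 0.19, limma adjusted p = 0.0272). Only the F/F difference reached 2-fold, and against the other genotype's normal array the +/+ tumour had a difference of -1.26.

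Rgmb, a membrane-anchored BMP co-receptor, was at 7.63 in F/F tumour and 7.46 in +/+ tumour, against 7.94 in F/F normal colon and 7.93 in +/+ normal colon. It was lower on both tumour arrays, by a fitted value of -0.39 that did not pass (SE 0.12, limma adjusted p = 0.0871). Lrig1, a transmembrane inhibitor of EGF receptor signalling that marks a partly quiescent crypt population, was at 7.25 in F/F tumour and 7.13 in +/+ tumour, against 7.09 in F/F normal colon and 7.35 in +/+ normal colon. The tissues overlapped, and the fitted difference was -0.03 (SE 0.15, limma adjusted p = 0.906).

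Smoc2, a secreted calcium-binding matrix protein of the crypt-base signature, was at 7.26 in F/F tumour and 7.96 in +/+ tumour, against 5.33 in F/F normal colon and 5.84 in +/+ normal colon. It was the second highest fitted rise among the markers, at 2.02 (SE 0.13, limma adjusted p = 0.00618), with differences of 1.93 in F/F mice (3.80-fold) and 2.12 in +/+ mice (4.34-fold). Fibroblast genes rose beside it: 7 of 8 passed, with the collagen gene Col1a1 at 1.22 and the filament gene Vim at 1.64, while Lum had a fitted difference of -0.52 (adjusted p = 0.147). Their mean level was 7.75 in F/F tumour and 7.91 in +/+ tumour, against 6.89 in F/F normal colon and 7.21 in +/+ normal colon. Their part in the value of Smoc2 was not tested.

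Olfm4, a secreted glycoprotein that marks crypt-base cells of the mouse small intestine, was at 3.20 in F/F tumour and 3.33 in +/+ tumour, against 2.93 in F/F normal colon and 3.15 in +/+ normal colon. All 4 values lay below the median gene level, the range over the arrays was narrow, and differences of 0.27 in F/F mice and 0.19 in +/+ mice are uncertain in size and direction. It was left out of the fit by the filter on level.

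Of the nuclear and RNA-binding markers, Cdca7, a Myc- and E2F-responsive chromatin factor that is highest in dividing cells, was at 7.06 in F/F tumour and 7.43 in +/+ tumour, against 6.26 in F/F normal colon and 6.63 in +/+ normal colon. The difference was 0.80 in both genotypes, 1.74-fold, and the fitted rise was 0.80 (SE 0.12, limma adjusted p = 0.0232). It stayed under 2-fold in both. The call was lost without the genotype term (limma adjusted p = 0.0551) and with any 1 of the 4 arrays left out, where the rise ran from 0.61 to 0.98. The F/F tumour differed from the +/+ normal array by 0.43, and the +/+ tumour from the F/F normal array by 1.17. Proliferation genes had a median of 0.75 in the same fit, with 5 of 7 rising, among them the helicase subunits Mcm3 at 0.99 and Mcm2 at 0.87 and the topoisomerase Top2a at 0.79.

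Ascl2, the basic helix-loop-helix factor that sets crypt-base stem cell fate, was at 4.22 in F/F tumour and 5.24 in +/+ tumour, against 3.24 in F/F normal colon and 3.07 in +/+ normal colon. Both tumour arrays were above both normal arrays, but only +/+ tumour exceeded the median gene level. The difference was 0.98 in F/F mice (1.97-fold) and 2.17 in +/+ mice (4.50-fold), sizes that may understate a change, since both normal values lie well below the median gene level. The fitted value of 1.57 did not pass (SE 0.39, limma adjusted p = 0.0590), and its adjusted p ran from 0.0243 to 0.0593 over 7 alternatives that kept all arrays, 3 of which brought it under 0.05. Msi1, the RNA-binding protein Musashi-1, was at 4.80 in F/F tumour and 4.88 in +/+ tumour, against 4.56 in F/F normal colon and 4.55 in +/+ normal colon. It stayed near the median gene level on all 4 arrays, with a fitted difference of 0.29 (SE 0.19, limma adjusted p = 0.325).

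**Figure D2:**
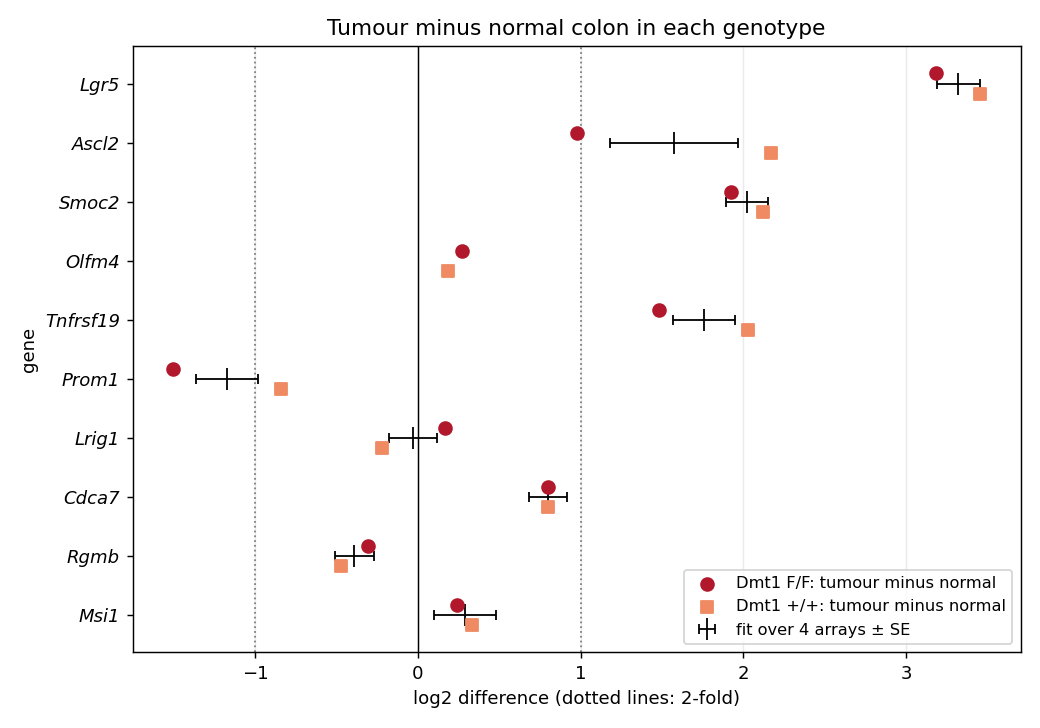
Log2 difference of tumour minus normal colon (x axis) for each marker in Dmt1 F/F mice (circles) and Dmt1 +/+ mice (squares), with the limma fit over 4 arrays and its SE in black and dotted lines at 2-fold. Lgr5 lies above 3 in both genotypes, Ascl2 shows the widest gap between genotypes (0.98 and 2.17), Prom1 lies below 0 in both and Olfm4 has no fit.

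Counted by array pairs, the F/F tumour had 3 of the 9 markers higher than F/F normal colon by 2-fold or more (Lgr5, Smoc2 and Tnfrsf19) and 1 lower (Prom1), where 5.98% of all genes were higher and 3.81% lower. The +/+ tumour had 4 higher than +/+ normal colon (the same 3 and Ascl2) and none lower, where 6.56% were higher and 5.31% lower. Ascl2 passed the filter on level only through the +/+ tumour array, so its place in this count is tied to the value compared. Both counts rest on single arrays. The median over the 9 markers was 0.80 in F/F mice and 0.80 in +/+ mice, and over all genes it was 0.04 in F/F mice and 0.08 in +/+ mice. Leaving out the F/F normal array or the +/+ tumour array, in a fit of tissue alone, left 1 marker that rose, Lgr5, and none that fell. Leaving out the +/+ normal array gave the rises of Lgr5, Smoc2 and Tnfrsf19 and the fall of Prom1, and leaving out the F/F tumour array gave these and a rise of Ascl2 (adjusted p = 0.0204). Cdca7 passed in none of these 4 fits. Over all genes, too, fewer passed in each of them than with all arrays kept.

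RefSeq promoter windows, from 250 bases before the start of a transcript to 50 after it on mouse build GRCm38.p6, were found for 7 of the 10 markers, with 11 windows in all. The windows of 3 genes are shown because these genes passed the test for tumour against normal colon in different directions: Tnfrsf19 and Cdca7 rose and Prom1 fell. Capitals mark the 2 motifs searched on both strands, the TCF/LEF motif ATCAAAG with its reverse complement CTTTGAT, and the E-box form CAGCTG, which is its own reverse complement. Other forms of the E-box were not searched and are not marked. The motifs do not overlap in these windows.
Tnfrsf19, chr14:61037938-61038237, minus strand: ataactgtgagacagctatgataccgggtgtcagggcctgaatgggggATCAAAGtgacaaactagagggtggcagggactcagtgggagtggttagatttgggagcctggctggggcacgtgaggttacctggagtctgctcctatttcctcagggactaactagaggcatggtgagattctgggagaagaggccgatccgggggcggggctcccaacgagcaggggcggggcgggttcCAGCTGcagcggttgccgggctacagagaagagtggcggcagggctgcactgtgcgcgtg
Cdca7, chr2:72475969-72476268, plus strand: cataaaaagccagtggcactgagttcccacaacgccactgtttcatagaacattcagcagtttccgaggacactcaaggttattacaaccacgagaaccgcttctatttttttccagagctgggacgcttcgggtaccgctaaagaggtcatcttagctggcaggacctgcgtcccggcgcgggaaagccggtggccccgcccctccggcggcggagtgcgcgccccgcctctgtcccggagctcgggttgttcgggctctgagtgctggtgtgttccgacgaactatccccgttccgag
Prom1, chr5:44101687-44101986, minus strand: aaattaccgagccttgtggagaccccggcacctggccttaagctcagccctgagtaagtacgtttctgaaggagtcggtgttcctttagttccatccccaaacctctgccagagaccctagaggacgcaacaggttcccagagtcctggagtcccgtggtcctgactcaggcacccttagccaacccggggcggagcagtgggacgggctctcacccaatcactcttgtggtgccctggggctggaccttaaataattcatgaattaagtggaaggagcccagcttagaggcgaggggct
The Tnfrsf19 window held 1 TCF/LEF motif and 1 CAGCTG, and its GC content was 60.7%. It was the only one of the 11 marker windows with either of these 2 searched motifs. Among 32851 promoter windows of the same length, 3.73% held the TCF/LEF motif and 16.3% held CAGCTG. A second Tnfrsf19 window, which starts at 61046806 on the same chromosome, held neither. A match is a run of letters and says nothing of binding, and enhancers further away were not covered.

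F/F was set against +/+ within each tissue to ask whether the Dmt1 genotype goes with the level of the markers. In tumour, 7 of the 9 fitted markers were lower in F/F than in +/+ and Lrig1 and Rgmb were higher. In the same comparison 53.8% of the 12060 genes were lower. Ascl2 had a log2 difference of -1.02 and was the only one of the 9 fitted markers to reach 2-fold, where 0.506% of all genes were lower and 1.70% higher by as much. Ascl2 passed the filter on level only through the +/+ tumour array, so its place in this count is tied to the value compared. Its F/F tumour value lay below the median gene level, so the size is uncertain. After quantile normalization the difference was -0.97, under 2-fold. Smoc2 followed at -0.70, Lgr5 at -0.52, Tnfrsf19 at -0.47 and Cdca7 at -0.37. These 5 were also higher in tumour than in normal colon in both genotypes, and that comparison shares the tumour arrays with this one. Prom1 (-0.24), Olfm4 (-0.13) and Msi1 (-0.08) differed by less, as did Lrig1 (0.13) and Rgmb (0.18).

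In normal colon no fitted marker reached 2-fold between F/F and +/+ in either direction, where 0.713% of genes were higher and 0.904% lower. Smoc2 (-0.51), Cdca7 (-0.37), Lrig1 (-0.26), Lgr5 (-0.26) and Olfm4 (-0.21) were lower in F/F normal colon. Prom1 (0.42), Ascl2 (0.17), Tnfrsf19 (0.07), Msi1 (0.01) and Rgmb (0.01) were higher. Position along the gut and genotype cannot be told apart between these normal arrays. The median over the 9 fitted markers was -0.37 in tumour and 0.01 in normal colon, and over all genes it was -0.02 in tumour and 0.04 in normal colon.

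Over both tissues, none of the 9 markers passed for genotype in the limma fit, and neither did any of the 12060 genes (0% in either direction), of which 991 had an unadjusted p under 0.05. Smoc2 had a fitted F/F minus +/+ difference of -0.60 (SE 0.13, adjusted p = 0.523), Lgr5 of -0.39 (SE 0.13, adjusted p = 0.589) and Cdca7 of -0.37 (SE 0.12, adjusted p = 0.571). These 3 were the markers with an unadjusted p under 0.05, and each was lower in F/F in both tissues. For Ascl2 the fitted difference was -0.42 (SE 0.39, adjusted p = 0.811), lower in F/F tumour and higher in F/F normal colon. Whether the genotypes differ in the tumour difference cannot be tested with 1 array per group. The tumour difference in F/F mice minus that in +/+ mice was -1.19 for Ascl2, -0.66 for Prom1, -0.55 for Tnfrsf19, -0.27 for Lgr5, -0.19 for Smoc2 and 0.0029 for Cdca7. For Lrig1 it was 0.39, for Rgmb 0.17 and for Msi1 -0.092.

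**Figure D3:**
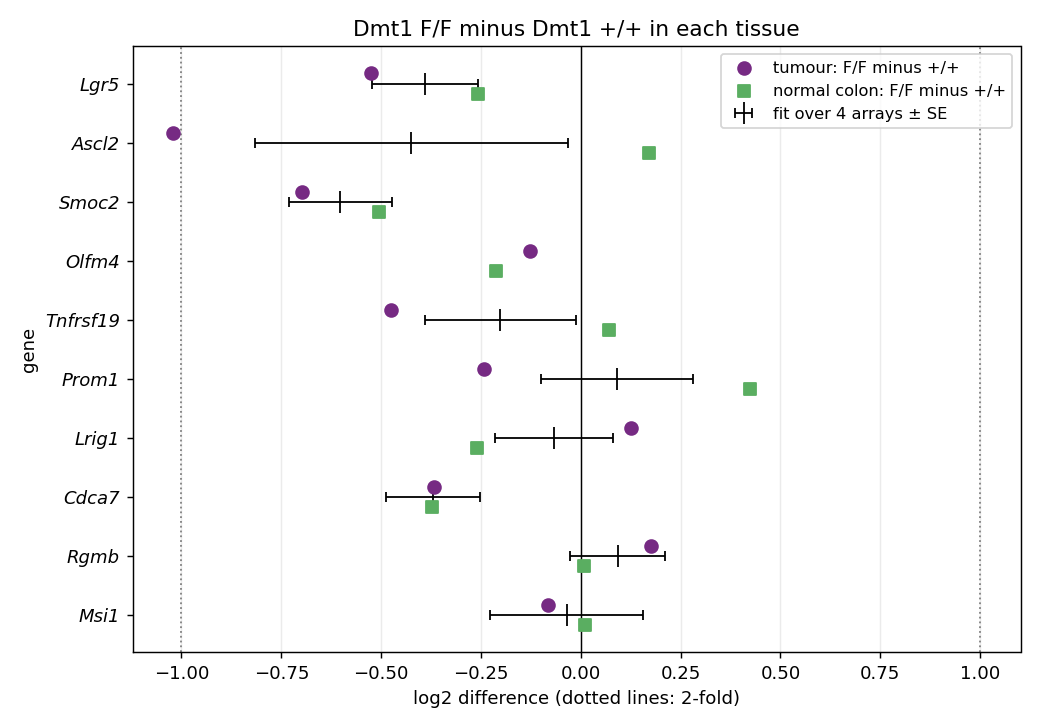
Log2 difference of Dmt1 F/F minus Dmt1 +/+ (x axis) for each marker in tumour (circles) and in normal colon (squares), with the limma fit over 4 arrays and its SE in black. Ascl2 is at -1.02 in tumour and 0.17 in normal colon, Smoc2 and Cdca7 are below 0 in both tissues, and no marker passed the genotype test.

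Other genes moved with the F/F and +/+ tumour arrays. Absorptive colonocyte genes had a median F/F minus +/+ difference of 1.40 in tumour and 0.19 in normal colon, and Cdx2, the homeobox factor of intestinal identity, was at 6.61 in F/F tumour and 5.22 in +/+ tumour, against 8.70 in F/F normal colon and 7.78 in +/+ normal colon. Smooth muscle genes had a median of 0.67 in tumour and -0.58 in normal colon, and leukocyte genes of 0.57 in tumour and -0.42 in normal colon. Of the 6 leukocyte genes, 4 were higher in F/F tumour, among them the B cell gene Cd79a at 1.77 and the pan-leukocyte gene Ptprc at 1.10. Lyz2 (-0.56) and Itgam (-0.44) were lower there. Epithelial genes had a median of 0.01 in tumour and 0.06 in normal colon. The part of these differences in the marker values was not tested.

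The markers were read beside related genes. Of 13 Wnt-driven crypt genes and R-spondin receptors fitted, 10 rose in tumour and none fell, with a median of 1.96, but 3 of the 10 (Notum, Lef1 and Lgr6) lay below the median gene level on both normal arrays and entered the fit through tumour arrays only. The feedback inhibitor Nkd1 rose by 3.80. The Wnt deacylase Notum had a fitted value of 3.92 and the factor Lef1 of 2.81. The cell cycle gene Ccnd1 had a fitted difference of 0.60 (adjusted p = 0.0648). Lgr4, the R-spondin receptor that is expressed throughout the crypt, was at 9.28 in F/F tumour and 9.20 in +/+ tumour, against 9.36 in both normal arrays, with a fitted difference of -0.12 (limma adjusted p = 0.429). The median F/F minus +/+ difference of the 13 genes was -0.38 in tumour and near 0 in normal colon.

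Among 20 other crypt-base genes, 12 were fitted, of which 4 rose and 2 fell. Rnf32 rose by 2.80 and the carbonic anhydrase Car12 fell by 2.69. Dach1, a homologue of the fly gene dachshund, had a fitted value of 2.53 but entered the fit through tumour arrays only. The sodium channel subunit Scn2b (1.58, adjusted p = 0.0646) and the water channel Aqp4 (-1.38, adjusted p = 0.166) did not pass. Aqp4 was at 10.28 in F/F tumour and 8.34 in +/+ tumour, against 10.44 in F/F normal colon and 10.94 in +/+ normal colon, with +/+ tumour the lowest of the 4. Of the 3 reserve stem cell genes, Hopx passed at 0.99, and Tert (0.71, adjusted p = 0.0724) and Bmi1 (0.14, adjusted p = 0.777) did not. Hopx and Tert, too, entered the fit through tumour arrays only. The other crypt-base genes, too, moved in both directions.

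Genes of regenerating or fetal-like epithelium, a state described in damaged gut, were fitted for 11 of 14 and rose in 8, with clusterin, Clu, at 2.59 and the alarmin Il33 at 2.13, while Sprr1a fell by 1.48. Relatives of the markers gave 2 rises of 7 genes fitted, the Musashi paralogue Msi2 by 0.57 and the Cdca7 paralogue Cdca7l by 0.87. Smoc1 had a fitted difference of 0.69 (adjusted p = 0.0897), Lrig3 of -0.86 (adjusted p = 0.0944) and Olfm1 of -0.44 (adjusted p = 0.162). Paralogues of Smoc2, Lrig1 and Olfm4 therefore made no call. Absorptive colonocyte genes fell in 6 of 10 cases and none rose, with Cyp2c65 at -4.67 and Slc13a1 at -4.31.

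**Figure D4:**
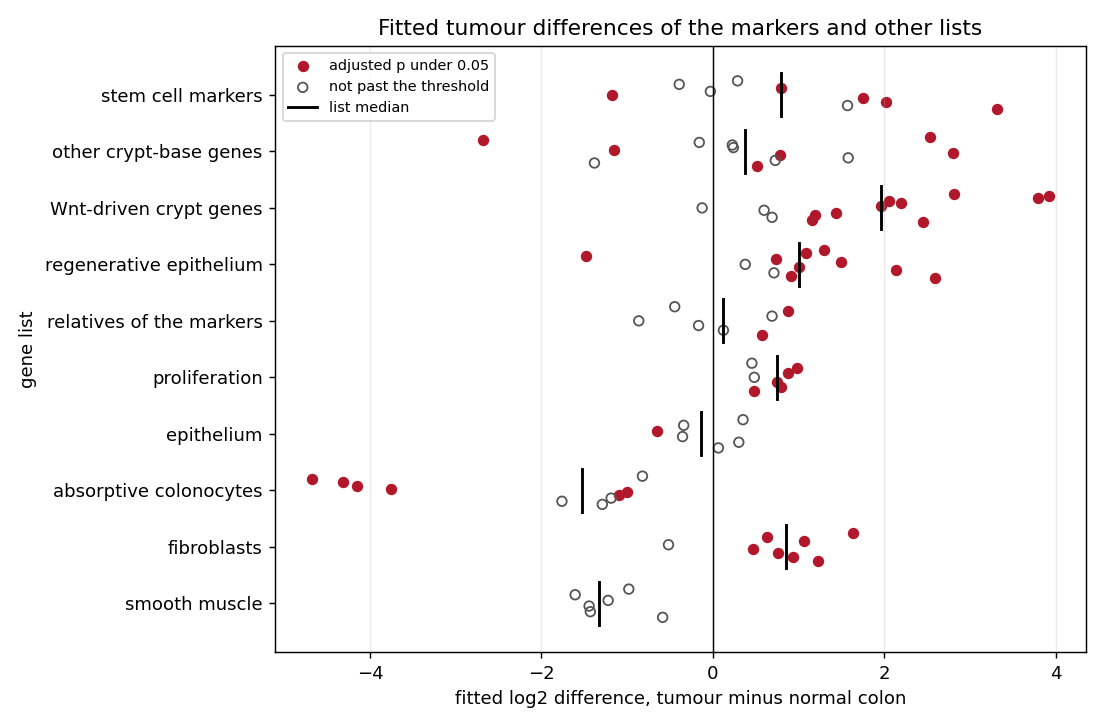
Fitted log2 difference of tumour minus normal colon (x axis) for the genes fitted in 10 lists, 1 point per gene, filled where the limma adjusted p is under 0.05, with the list median as a black bar. The stem cell markers have a median of 0.80 and spread from -1.17 for Prom1 to 3.32 for Lgr5. Their median lies between those of the Wnt-driven crypt genes (1.96) and the absorptive colonocyte genes (-1.52), and close to those of the fibroblast genes (0.85) and the proliferation genes (0.75).

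Other cell types that can carry a marker were read as well. Musashi-1 is also known from neural progenitor cells. Of 8 genes of enteric neurons and glia, 1 was fitted, the receptor gene Ret, which rose by 0.78 (limma adjusted p = 0.0424). The 5 others with a probe set lay below the median gene level on all 4 arrays. Each was lower in tumour than in normal colon in both genotypes, opposite to Ret. The differences ran from -0.27 for S100b to -0.83 for Gfap in F/F mice. In +/+ mice they ran from -0.27 for S100b to -0.47 for Elavl4. At this level their sizes are uncertain. Smooth muscle genes made no call in 6, with a median of -1.32. The deep crypt secretory and Paneth cell list rose in 4 of 6 genes (Lyz1, Mmp7, Pla2g2a and Defa24), with Lyz1 at 4.74. Reg4 had a fitted difference of 0.92 that did not pass (limma adjusted p = 0.0524), and the stem cell factor receptor Kit fell by 0.95. The defensin gene Defa24, fitted at 4.17, entered through tumour arrays only. Near-identical defensin genes may share signal. Goblet cell genes fell in 2 of 7, with Spdef at -1.41 and Agr2 at -0.68.

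The genes whose pattern over the 4 arrays lay nearest to that of Lgr5, by Euclidean distance between values centred on each gene's own mean, were Defa35, Krt23, Gsdma, Robo1 and Slc7a11. Their tumour minus normal differences ran in F/F mice from 2.89 for Krt23 to 3.54 for Robo1, and in +/+ mice from 3.27 for Gsdma to 3.74 for Robo1, close to those of Lgr5. Defa35, at a distance of 0.15, belongs to a family with near-identical members. Smoc2 ranked 127, Tnfrsf19 177 and Ascl2 257 by the same distance, and Prom1 ranked 11659. With 4 arrays a like pattern is a description of these arrays.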

How the data were processed

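RNA was extracted with Trizol, and 400 ng were labelled with biotin with an Affymetrix whole-transcript kit, per the labels' protocols. The authors deposited 1 log2 signal per probe set, and the submitters' processing notes name RMA and the oligo package with no version. RMA gives no detection call and no error of a single value. The table held 41345 probe sets, and 0 columns of no sample. Platform annotation named 1 gene for 23521 probe sets, several for 1814 and none for 16010; the gene IDs of 23328 single-gene probe sets matched RefSeq of GRCm38.p6. The number of arrays limits the precision, and nothing says that arrays come from separate animals. With 1 array per group, p-values rest on the tissue by genotype term and on the prior from all genes. They do not measure the spread between animals.

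Differences were computed between log2 values. The additive model was fitted with limma 3.58.1 in R 4.3.3 (lmFit, eBayes with a trend, 1 residual degree of freedom, prior of 3.40 degrees of freedom) and tested on simulated data. Adjusted p-values are limma's, over 12060 genes. Named were all 10 markers, Slc11a2, Apc and Cdx2, up to 5 genes per list by fitted tumour difference, and the 5 genes nearest to Lgr5 in pattern; others are marked as such. Members and lists were chosen with earlier results of these data known. Alternatives covered scaling, filter, probe set, variance prior, model terms, left-out arrays, threshold and baseline array.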

Additional observations from a re-analysis of the deposited data

Results flagged for a closer look

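Of the 10 markers, 5 had opposite signs of the F/F minus +/+ difference in tumour and in normal colon. Ascl2 was at -1.02 in tumour and 0.17 in normal colon, Tnfrsf19 at -0.47 and 0.070, Prom1 at -0.24 and 0.42, Lrig1 at 0.13 and -0.26, and Msi1 at -0.081 and 0.011. Lrig1 also differed in the sign of tumour minus normal colon, at 0.16 in F/F mice and -0.22 in +/+ mice. With 1 array per group these differences between tissues and genotypes were not tested. Opposite signs of the genotype difference were found in 44.5% of the 12060 genes, and opposite signs of the tumour difference in 21.8%. The Ascl2 values lie below the median gene level except in +/+ tumour.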

How the results depend on the processing

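Lgr5 passed for tumour against normal colon under every alternative run, with adjusted p between 3.45e-05 and 0.0114 where all arrays were kept. Smoc2, Tnfrsf19 and Prom1 passed under the alternatives that kept all arrays. Leaving out each array in turn, in a fit of tissue alone, gave 1 to 4 markers that rose and 0 to 1 that fell, and over all genes 38 to 905 and 11 to 745, against 1331 and 992; fewer arrays were fitted. Over all genes, median centring gave 1515 that fell and the tissue term alone 651. Lrig1 ran from -0.16 to 0.10 when an array was left out.

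At a log2 size of 0.5, 5 markers were higher in F/F tumour than in F/F normal colon, against 3 at log2 1. In +/+ tumour 1 was lower than in +/+ normal colon, against 0. Between genotypes, 3 were lower in F/F than in +/+ tumour, against 1, and 1 was lower in F/F than in +/+ normal colon, against 0. The share of all genes at log2 0.5 was not counted, so whether these counts exceed it is not known. With F/F normal colon as its baseline, 1 marker, Prom1, was lower in +/+ tumour by 2-fold. On that baseline 5 markers were higher by 2-fold, Cdca7 among them at 1.17, against 4 on the +/+ baseline. With +/+ normal colon as its baseline, 4 markers were higher in F/F tumour by 2-fold, against 3 on the F/F baseline. After quantile normalization 0 were lower in F/F than in +/+ tumour by 2-fold; the cause was not tested.

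The genotype term alone, with an array left out, sets unequal numbers of tumour and normal arrays against each other, so its sign follows tissue. Its F/F minus +/+ values ran from -2.12 to 1.34 for Lgr5, -1.51 to 0.66 for Ascl2, -1.66 to 0.46 for Smoc2, -1.22 to 0.81 for Tnfrsf19, -0.66 to 0.84 for Prom1, -0.18 to 0.043 for Lrig1, -0.77 to 0.030 for Cdca7, -0.15 to 0.33 for Rgmb and -0.20 to 0.13 for Msi1, and made 0 calls. No paired analysis was possible because each group has 1 array and the labels give no replicate numbers.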
